A study of Bos taurus with 12 samples.

Results

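The 10 genes described here encode enzymes that make and acetylate polyamines and enzymes that return the sulfur-containing by-product of that synthesis to methionine. They were chosen by name: ornithine decarboxylase (ODC1), S-adenosylmethionine decarboxylase (AMD1), spermidine synthase (SRM), spermine synthase (SMS), spermidine/spermine acetyltransferase (SAT1), and MTAP, MRI1, APIP, ENOPH1 and ADI1 of the methionine salvage pathway. Each symbol matched a single Entrez gene ID, so that they were 10 of the 30336 gene IDs counted. Of those IDs, 21227 had a read in at least 1 library and 13212 passed the filter on low counts, and all 10 genes were among the latter.

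Polyamines are small cations needed for translation and cell growth. Putrescine is made from ornithine by ODC1, the step that limits the pathway, and aminopropyl groups from decarboxylated S-adenosylmethionine (SAM), the product of AMD1, are then added to form spermidine and spermine. Each addition releases methylthioadenosine, which the salvage enzymes turn back into methionine. Polyamine synthesis is therefore a use of methionine-derived SAM that can return the methylthio group, and liver is the main site of SAM synthesis.

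Liver was biopsied by puncture from 12 Holstein heifer calves at 4 d of age. The CON group comprised 6 calves whose dams ate the basal close-up diet with no added methionine, and the MET group 6 calves whose dams ate that diet plus ethyl cellulose rumen-protected methionine over the final 28 d of gestation. Calves of both groups were a subset of a larger cohort and were managed alike after birth, so that the comparison asked whether maternal methionine supply was followed by other transcript levels in the offspring. Expression is given as CPM, read counts scaled to a common library size after TMM normalization, and levels of different genes are compared as RPKM, the same values per kilobase of exon.

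The libraries held 8277789 to 10397604 counted reads. In these, 3 reads, the floor used here, corresponded to 0.289 to 0.362 CPM by counted reads alone, without the TMM factors. CON replicates 1 and 4 gave counts almost as close as repeat draws from the same library (chi-square per gene 1.31), and so did MET replicates 1 and 3 (1.23), against at least 23.3 for each of the other 64 pairs. Each near-identical pair was therefore counted as 1 sample, and means ± SD are over 5 samples per diet. Tests are given over the 12 libraries and over 10 samples. The 12-library tests count both libraries of a pair as separate replicates, so their FDR can be too small. For AMD1, SMS, SAT1, MRI1, APIP, ENOPH1 and some genes around the group, the FDR is given over the 10 samples alone. A single first index was used for all CON libraries and a different one for all MET libraries, so that diet and index cannot be told apart. The 8 hepatocyte markers (among them ALB, APOA1 and TTR) were abundant in every sample, with summed levels of 141924 to 195914 CPM in CON and 117331 to 153958 CPM in MET. In bulk tissue, fewer cells of a type and less RNA per cell cannot be told apart.

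The 10 genes spanned a wide range of abundance in neonatal liver. Per exonic length, ADI1 was the most abundant, at 409 ± 111 RPKM (SD, n = 10 samples), and SAT1 followed at 193 ± 41.7 RPKM. ADI1 exceeded SAT1 in 10 of 10 samples although their ranges overlapped (269 to 600 and 153 to 278 RPKM). ODC1 averaged 40.0 ± 14.1 RPKM and its range lay wholly below that of SAT1. The remaining genes were lower and formed a sequence in which neighbours overlapped: APIP 17.6 ± 3.91, ENOPH1 15.0 ± 3.32, AMD1 14.8 ± 3.42, SMS 7.97 ± 1.58, MRI1 5.81 ± 1.72, MTAP 5.62 ± 1.51 and SRM 3.95 ± 2.39 RPKM. ENOPH1 exceeded AMD1 in only 4 of 10 samples and MRI1 exceeded MTAP in 7, so that these neighbours did not differ beyond their spread. The enzymes of a single linear salvage route were thus far from equal at the transcript level, with ADI1, the last of the 5, well above MTAP, the first.

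**Figure D1:**
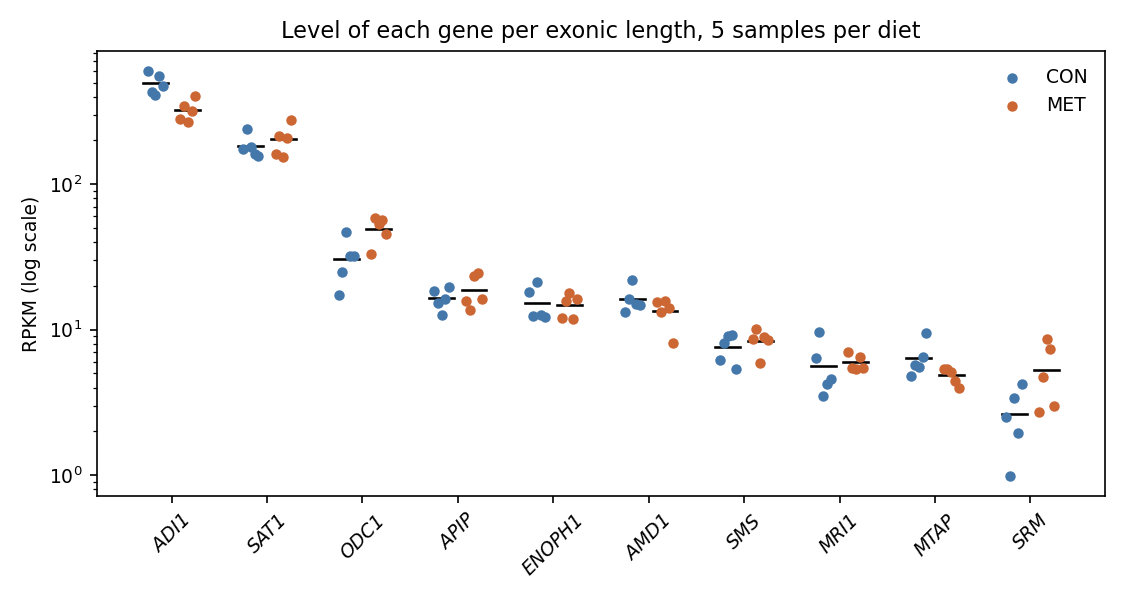
Expression per exonic length (RPKM, log scale) of the 10 genes in each of the 5 CON and 5 MET samples, ordered by their mean, with bars at the mean of each diet. ADI1 and SAT1 stand above the other 8 genes in every sample, and SRM has the lowest mean at 3.95 RPKM.

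ADI1 was the only member of the group that passed the threshold for differential expression (FDR ≤ 0.10) in edgeR over the 12 libraries, and it was lower in MET. DESeq2 over the same libraries called ADI1 and ODC1. At this threshold 583 of the 13212 genes tested (4.41%) were called by edgeR's quasi-likelihood test and 1314 of 12695 (10.4%) by DESeq2's Wald test. The edgeR count moved with single libraries: 26 genes were called without CON replicate 1 and 35 without CON replicate 4. Over the 10 samples the same test called 0 of 13212 genes (0%), while 2162 genes (16.4%) had an unadjusted edgeR p-value within 0.05 and DESeq2 called 624 of 11928 genes (5.23%). Of the 10 genes described here, 3 (ADI1, ODC1 and SRM) had an unadjusted edgeR p-value within 0.05 over 10 samples, as they did over 12 libraries, where 2715 genes (20.5%) did. The median log2 fold change of the 10 genes was 0.12 over the 10 samples, with 6 estimates above 0 and 4 below, beside -0.0023 over all genes tested. Their median absolute log2 fold change was 0.23, beside 0.20 over all genes tested.

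**Figure D2:**
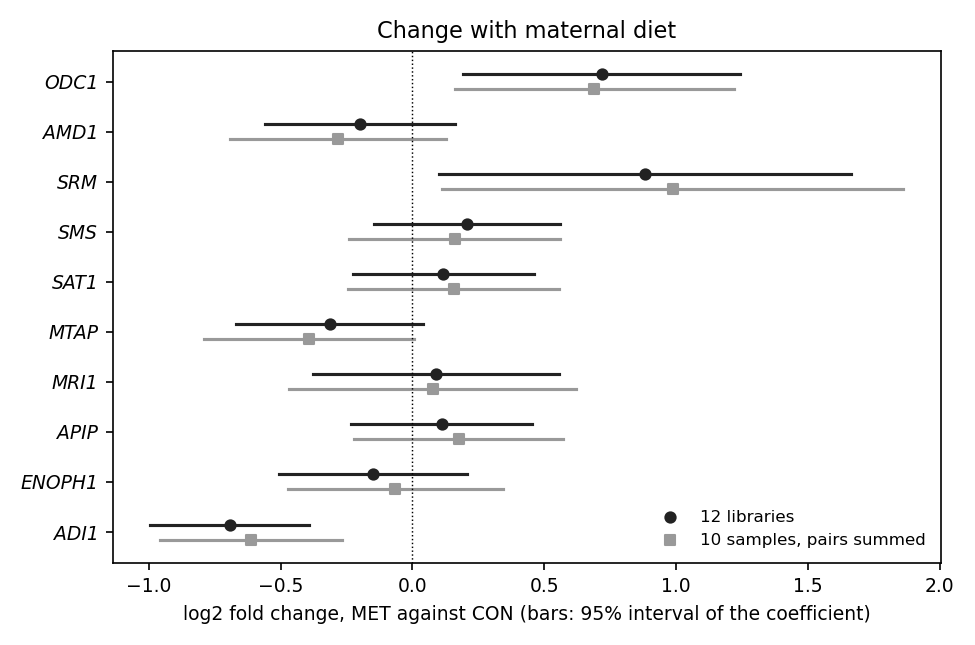
Log2 fold change of MET against CON for the 10 genes, by the edgeR fit over 12 libraries (black circles) and over 10 samples with near-identical libraries summed (grey squares), with 95% intervals of the coefficient. The intervals of ADI1, ODC1 and SRM leave out 0 in both fits, and those of the other 7 genes include it.

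Among the synthesis enzymes, ODC1, SRM and SMS had higher means in MET and AMD1 a lower mean, and none passed the FDR threshold in edgeR over 12 libraries or over 10 samples. ODC1 (Entrez 281365, UMD 3.1.1 chr11:87175389-87182661, plus strand, 12 merged exons) decarboxylates ornithine to putrescine and is among the enzymes with the shortest lifetime in mammalian cells. In CON, ODC1 was at 36.8 CPM in the sample of replicates 1 and 4, and at 52.9, 101, 68.4 and 68.3 CPM in replicates 2, 3, 5 and 6. In MET it was at 70.9 CPM in the sample of replicates 1 and 3, and at 124, 114, 121 and 96.5 CPM in replicates 2, 4, 5 and 6. All 5 MET samples thus lay above 4 of the 5 CON samples, and the diets overlapped through CON replicate 3, which exceeded MET replicate 6 and the MET pair.

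The means of ODC1 were 65.4 ± 23.6 CPM in CON and 105 ± 22.1 CPM in MET (SD, n = 5 each). The log2 fold change was 0.72 (SE 0.24, edgeR FDR = 0.130) over the 12 libraries and 0.69 (SE 0.24, FDR = 0.214) over the 10 samples, with a 95% interval of 0.16 to 1.22. An exact two-sided permutation test on log2 CPM gave p = 0.0397 over the 10 samples, unadjusted for the 10 genes tested in this way. Without CON replicate 3, the 12-library estimate was 0.92 and the FDR 0.0857, in a fit that called 284 genes in all, so that a single library decided on which side of the threshold ODC1 fell. DESeq2 gave an FDR of 0.0624 over the libraries and of 0.111 over the samples.

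SRM (Entrez 505916, chr16:43445467-43449517, plus strand, 8 merged exons) adds an aminopropyl group to putrescine and was the least abundant of the 10 genes, with 10 to 95 reads per library. In CON, SRM was at 3.19 CPM in the sample of replicates 1 and 4, and at 1.26, 4.35, 2.502 and 5.40 CPM in replicates 2, 3, 5 and 6. In MET it was at 3.47 CPM in the sample of replicates 1 and 3, and at 6.05, 10.9, 9.40 and 3.81 CPM in replicates 2, 4, 5 and 6. MET replicates 2, 4 and 5 lay above all CON samples, whereas the MET pair and MET replicate 6 lay within the CON range.

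The means of SRM were 3.34 ± 1.60 CPM in CON and 6.73 ± 3.33 CPM in MET. The log2 fold change was 0.88 (SE 0.36, edgeR FDR = 0.193) over the libraries and 0.99 (SE 0.40, FDR = 0.265) over the samples, and the exact permutation p was 0.0873. This was the largest estimate among the 10 genes and also the one with the widest interval, from 0.11 to 1.86 over the samples.

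AMD1 (Entrez 280997, chr9:39903107-39924416, minus strand, 9 merged exons) decarboxylates SAM and so supplies the aminopropyl donor of both synthases. In CON, AMD1 was at 26.5 CPM in the sample of replicates 1 and 4, and at 32.8, 44.3, 30.1 and 29.9 CPM in replicates 2, 3, 5 and 6. In MET it was at 31.4 CPM in the sample of replicates 1 and 3, and at 26.5, 31.4, 28.5 and 16.4 CPM in replicates 2, 4, 5 and 6. Most samples of both diets lay close together, with CON replicate 3 above and MET replicate 6 below the others. The means were 32.7 ± 6.82 and 26.8 ± 6.20 CPM, and the log2 fold change was -0.28 over the samples (95% interval -0.69 to 0.13, edgeR FDR = 0.476). Over the libraries it was -0.20, but -0.08 without CON replicate 3 and -0.09 without MET replicate 6.

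SMS (Entrez 615950, chrX:128561210-128591570, minus strand, 10 merged exons) converts spermidine to spermine. It ranged from 8.20 to 13.9 CPM in CON and from 8.98 to 15.3 CPM in MET, with means of 11.4 ± 2.56 and 12.7 ± 2.31 CPM. The ranges overlapped almost fully, and the log2 fold change was 0.16 over the samples (95% interval -0.24 to 0.56, edgeR FDR = 0.701). Over the libraries it was 0.21, but 0.14 without CON replicate 4 and 0.13 without CON replicate 6.

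The levels of the 2 decarboxylases can also be set against each other within a sample. The ratio of ODC1 to AMD1 in RPKM was 1.85 ± 0.407 in CON (range 1.30 to 2.15) and 3.90 ± 1.26 in MET (range 2.13 to 5.54), so that only the lowest MET sample lay under the highest CON sample. The ratio of SRM to SMS was 0.382 ± 0.253 in CON and 0.684 ± 0.474 in MET, with wide overlap. These ratios are given as descriptions without a test.

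SAT1 (Entrez 508861, chrX:126467441-126470489, minus strand, 6 merged exons) acetylates spermidine and spermine for export or oxidation and is known to be induced by polyamines. In CON, SAT1 was at 183 CPM in the sample of replicates 1 and 4, and at 252, 188, 169.5 and 165 CPM in replicates 2, 3, 5 and 6. In MET it was at 169 CPM in the sample of replicates 1 and 3, and at 227, 161, 218 and 292 CPM in replicates 2, 4, 5 and 6. Both diets covered much the same span, with means of 192 ± 35.2 and 214 ± 52.7 CPM. The log2 fold change was 0.16 over the samples (95% interval -0.24 to 0.56, edgeR FDR = 0.707), and over the libraries it was 0.12, but 0.21 without CON replicate 2 and -0.01 without MET replicate 6. Part of the SAT1 exons lies opposite another counted gene, and reads were assigned by strand.

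**Figure D3:**
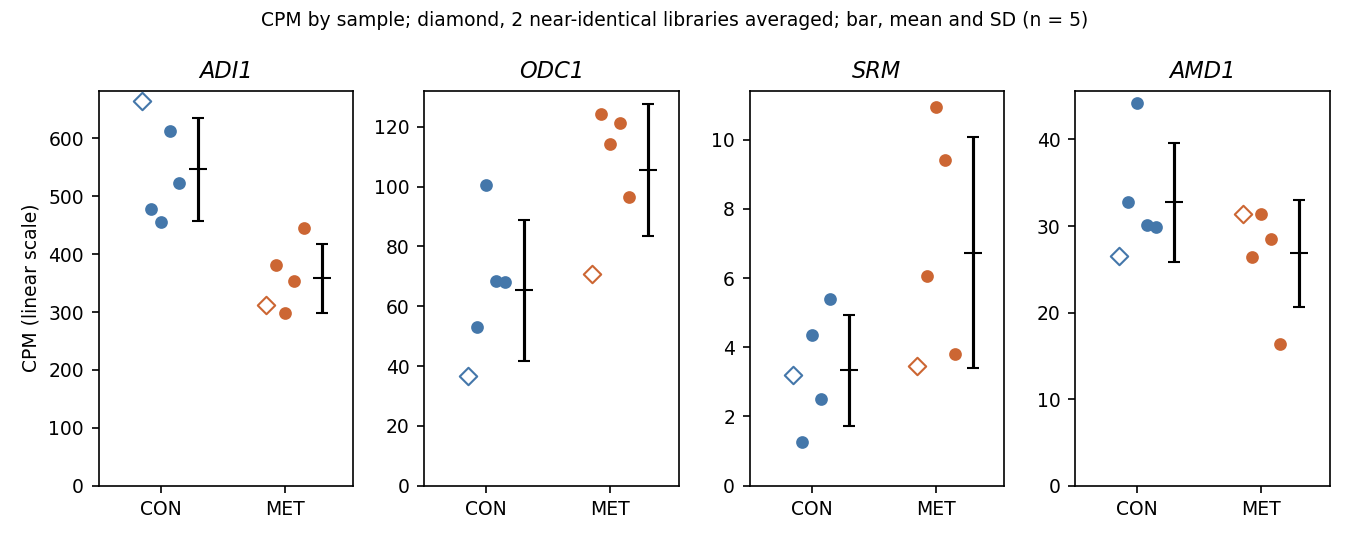
CPM (linear scale) of ADI1, ODC1, SRM and AMD1 in each of the 10 samples, with open diamonds for the mean of a near-identical library pair and bars for the mean and SD of each diet (n = 5). All MET samples lie below all CON samples for ADI1, while the diets overlap for ODC1, SRM and AMD1.

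In the methionine salvage pathway the first 4 enzymes did not pass the threshold in either direction in edgeR or DESeq2 and the fifth, ADI1, was lower in MET over the 12 libraries. ADI1 (Entrez 615764, chr8:112948194-112954511, plus strand, 4 merged exons) is a metal-dependent dioxygenase that cleaves the acireductone intermediate to the keto acid from which methionine is formed by transamination. In CON, ADI1 was at 664 CPM in the sample of replicates 1 and 4, and at 479, 455, 612 and 524 CPM in replicates 2, 3, 5 and 6. In MET it was at 311 CPM in the sample of replicates 1 and 3, and at 382, 298, 354 and 445 CPM in replicates 2, 4, 5 and 6. The 5 MET samples all lay below the 5 CON samples, the closest being MET replicate 6 and CON replicate 3. Of all genes tested, 490 (3.71%) had diets that did not overlap in this way, and ADI1 was the only one among the 10.

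The means of ADI1 were 547 ± 89.0 CPM in CON and 358 ± 59.0 CPM in MET (SD, n = 5 each), a level 1.62-fold lower by the 12-library estimate and 1.53-fold lower by the 10-sample estimate. The log2 fold change was -0.69 (SE 0.14, edgeR FDR = 0.0452) over the libraries and -0.61 (SE 0.16, 95% interval -0.96 to -0.27, FDR = 0.174) over the samples. DESeq2's Wald test gave an FDR of 0.0139 over the same 10 samples. The exact permutation p was 0.00794 over the samples, the smallest that 252 arrangements can give. Without CON replicate 1 or without CON replicate 4, the near-identical CON pair, the 12-library FDR was 0.104 and 0.108, with estimates of -0.64 in both cases, in the fits that called 26 and 35 genes in all, and with both pairs left out the estimate was -0.48 (edgeR FDR = 0.252).

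MTAP (Entrez 782907, chr8:22222678-22269385, minus strand, 8 merged exons) opens the pathway by splitting methylthioadenosine into adenine and methylthioribose phosphate. In CON, MTAP was at 10.7 CPM in the sample of replicates 1 and 4, and at 12.7, 12.2, 14.4 and 21.0 CPM in replicates 2, 3, 5 and 6. In MET it was at 11.9 CPM in the sample of replicates 1 and 3, and at 12.01, 11.4, 9.85 and 8.76 CPM in replicates 2, 4, 5 and 6. Every MET sample lay below 4 of the 5 CON samples, and the CON pair lay inside the MET range. The means were 14.2 ± 3.99 and 10.8 ± 1.42 CPM, and the log2 fold change was -0.39 over the samples (SE 0.18, 95% interval -0.79 to 0.0062, edgeR FDR = 0.312, exact permutation p = 0.0714). Over the libraries it was -0.31 (edgeR FDR = 0.302), but -0.15 without CON replicate 6.

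MRI1 (Entrez 534734, chr7:12934835-12941251, plus strand, 6 merged exons) isomerizes methylthioribose phosphate. Its means were 6.88 ± 2.99 CPM in CON and 7.23 ± 0.901 CPM in MET, and the CON samples spread from 4.23 to 11.7 CPM and the MET samples only from 6.56 to 8.53 CPM. The log2 fold change was 0.08 over the samples (95% interval -0.47 to 0.62, edgeR FDR = 0.907). Over the libraries it was 0.09, but 0.29 without CON replicate 2 and -0.02 without CON replicate 3.

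APIP (Entrez 508345, chr15:66207585-66231698, minus strand, 7 merged exons), the dehydratase of the pathway, was first described as a protein bound to the apoptosis factor APAF1. It ranged from 14.2 to 22.3 CPM in CON and from 15.5 to 27.5 CPM in MET, with means of 18.6 ± 3.18 and 21.1 ± 5.44 CPM. The log2 fold change was 0.18 over the samples (95% interval -0.22 to 0.57, edgeR FDR = 0.669). ENOPH1 (Entrez 525563, chr6:98990267-99029323, plus strand, 8 merged exons), the enolase-phosphatase that makes the substrate of ADI1, ranged from 27.5 to 48.0 CPM in CON and from 26.5 to 40.1 CPM in MET. Its means were 34.6 ± 9.43 and 33.2 ± 5.98 CPM, and the log2 fold change was -0.06 over the samples (95% interval -0.47 to 0.34, edgeR FDR = 0.896). Over the 12 libraries the estimates were 0.11 for APIP and -0.15 for ENOPH1. With a library left out, that of APIP ranged from 0.01 (without MET replicate 5) to 0.18 (without MET replicate 2). That of ENOPH1 ranged from -0.22 to -0.045, the latter without CON replicate 3. For neither gene was a difference between the diets detectable at this number of calves.

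ADI1 held a smaller part of the summed RPKM of the 10 genes in MET (49.9% ± 1.62) than in CON (63.3% ± 6.02), and the shares of the other 9 genes move with it. Within the salvage pathway, the RPKM ratio of ADI1 to APIP was 30.3 ± 4.14 in CON (range 23.9 to 34.0) and 18.5 ± 6.29 in MET (range 11.5 to 25.1). The ratio of ADI1 to ENOPH1 was 34.0 ± 9.15 in CON and 22.5 ± 4.52 in MET, and that to MRI1 was 98.1 ± 33.1 and 55.3 ± 13.3. The ratio of ADI1 to MTAP differed less, at 82.0 ± 26.9 in CON (range 50.1 to 124) and 68.6 ± 20.4 in MET (range 52.5 to 102). All 4 ratios overlapped between the diets and were not tested.

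Across the 10 samples, none of the 45 correlations between members of the group passed adjustment. The highest was between ODC1 and SRM (Pearson's r = 0.712, permutation p = 0.0206, adjusted p = 0.567, Spearman's rho = 0.782, permutation p = 0.0106, adjusted p = 0.399). It was 0.720 without the 2 samples farthest from the median of ODC1, and 0.524 when the mean of each diet had been taken out. ODC1 and ADI1 had r = -0.699 (permutation p = 0.0252, adjusted p = 0.567, rho = -0.745, permutation p = 0.0177, adjusted p = 0.399), which was -0.525 without the 2 farthest samples and -0.335 within the diets. Of the 13211 other genes, those with the log2 CPM pattern most like ADI1 over the 10 samples were AMIGO1 (r = 0.933), RUFY3 (r = 0.898) and ZRANB1 (r = 0.891). Among the most opposite were RNF121 (r = -0.921) and YBEY (r = -0.917). These values are descriptions, and the difference between the diets enters each of them.

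Around these 10 genes, 31 genes that regulate ODC1, supply ornithine and SAM, oxidize, transport or use polyamines, or complete methionine salvage were followed, of which 26 passed the filter. At FDR ≤ 0.10, edgeR called 0 of the 26 in either fit, and DESeq2 called 4 over the libraries, where it called 10.4% of all genes, and 1 over the samples, where it called 5.23%. Before adjustment, 6 of the 26 had an edgeR p-value within 0.05 over the samples, beside 16.4% of all genes tested. The median log2 fold change over the samples was -0.03, with 11 estimates above 0 and 15 below.

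Of the regulators of ODC1, OAZ1, the antizyme that binds ODC1 and sends it to the proteasome, was at 203 ± 29.9 CPM in CON and 217 ± 25.2 CPM in MET (log2 fold change 0.06 over the libraries, edgeR FDR = 0.809, and 0.09 over the samples, FDR = 0.767). AZIN1, which sequesters antizyme, was at 52.2 ± 12.3 and 53.6 ± 7.97 CPM (0.07, FDR = 0.819 over the libraries and 0.04, FDR = 0.930 over the samples). OAZ2 had estimates of -0.05 (FDR = 0.860) over the libraries and -0.02 (FDR = 0.961) over the samples. With a library left out, the 12-library estimates ranged from 0.01 to 0.14 for OAZ1 (without MET replicate 6 and CON replicate 2), from 0.02 to 0.20 for AZIN1 (without MET replicate 5 and CON replicate 3), and from -0.12 to 0.0036 for OAZ2 (without MET replicates 6 and 3). No difference in the antizyme genes was detectable at this number of calves. The ratio of ODC1 to OAZ1 in RPKM was 0.188 ± 0.0769 in CON and 0.277 ± 0.0564 in MET, with overlap.

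For the supply of ornithine, ARG1, the arginase of the urea cycle, varied widely, at 642 ± 240 CPM in CON and 493 ± 226 CPM in MET. Its log2 fold change was -0.41 (edgeR FDR = 0.473) over the libraries and -0.38 (FDR = 0.611) over the samples. Without MET replicate 6 the 12-library estimate was -0.27. SLC25A15, which exchanges ornithine and citrulline across the inner mitochondrial membrane, was at 23.9 ± 9.37 and 13.8 ± 5.47 CPM, with estimates of -0.56 (FDR = 0.272) over the libraries and -0.77 (FDR = 0.242) over the samples. Without CON replicate 5 its 12-library estimate was -0.33 (FDR = 0.484). OAT, which consumes ornithine, had an estimate of -0.49 (FDR = 0.262) over the samples.

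Among the genes of polyamine oxidation, PAOX, the oxidase that acts on acetylated polyamines, was at 73.3 ± 20.4 CPM in CON and 56.6 ± 16.1 CPM in MET (log2 fold change -0.39 over the libraries, edgeR FDR = 0.273, and -0.37 over the samples, FDR = 0.439). SAT2, a relative of SAT1, was at 30.5 ± 10.5 and 30.5 ± 9.15 CPM (-0.07, FDR = 0.904 over the libraries and -0.0068, FDR = 0.995 over the samples), with a 12-library estimate of -0.24 without CON replicate 3 and of 0.01 without MET replicate 5. Spermidine is also the donor for hypusine, the modified lysine of the translation factor EIF5A. The tested genes of that route, EIF5A (147 ± 15.6 CPM in CON and 174 ± 24.1 CPM in MET), DHPS and DOHH (7.65 ± 1.36 and 9.90 ± 1.58 CPM), all had estimates above 0, of 0.24, 0.18 and 0.43 over the libraries, that of DHPS being 0.09 without MET replicate 4. Over the samples the estimates were 0.24, 0.22 and 0.38. Their FDR in edgeR were 0.238, 0.473 and 0.124 over the libraries and 0.370, 0.469 and 0.284 over the samples, while DESeq2 called DOHH over the libraries (FDR = 0.0771) and not over the samples (FDR = 0.243).

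Among the transporters, ATP13A3, a P-type ATPase that takes part in polyamine uptake, was at 5.17 ± 3.17 CPM in CON and 2.62 ± 0.567 CPM in MET, with log2 fold changes of -0.88 (edgeR FDR = 0.128) over the libraries and -0.96 (FDR = 0.220) over the samples. CON replicate 3, at 10.8 CPM, lay far above all others, and without it the 12-library estimate was -0.51 (FDR = 0.214). SLC3A2 had estimates of 0.35 (edgeR FDR = 0.113) over the libraries and 0.33 (FDR = 0.242) over the samples. DESeq2 called both genes over the libraries (FDR = 0.0692 and 0.0640) and neither over the samples (FDR = 0.121 and 0.197).

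Of the genes of SAM supply and the last transamination, MAT1A, the hepatic SAM synthetase, was at 542 ± 205 CPM in CON and 466 ± 146 CPM in MET (log2 fold change -0.20 over the libraries, edgeR FDR = 0.703, and -0.22 over the samples, FDR = 0.731). With a library left out its 12-library estimate ranged from -0.31 (without MET replicate 1) to -0.08 (without MET replicate 2). TAT, a transaminase better known for degrading tyrosine that can also act on the keto acid of methionine, was at 449 ± 96.1 and 299 ± 74.9 CPM, with estimates of -0.49 (FDR = 0.148) over the libraries and -0.59 (FDR = 0.197) over the samples. DESeq2 called TAT over the libraries (FDR = 0.0847) and, as the only gene of these lists, over the samples (FDR = 0.0801). TAT is among the enzymes that can act in the step after ADI1. Of the others listed for it, KYAT1 had an estimate of -0.21 (edgeR FDR = 0.761) over the samples. KYAT3 was at -0.17 (FDR = 0.728) and NIT2 at 0.13 (FDR = 0.756).

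**Figure D4:**
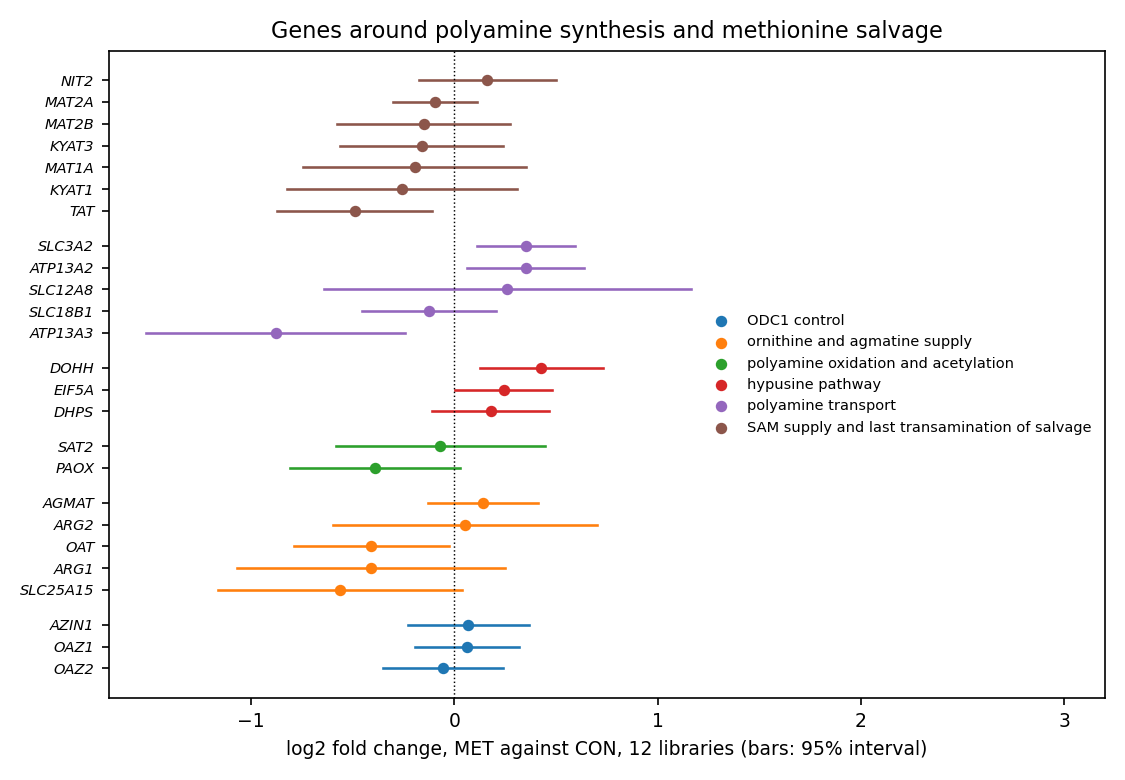
Log2 fold change of MET against CON over the 12 libraries, with 95% intervals of the coefficient, for 25 of the 26 tested genes around polyamine synthesis and methionine salvage, colored by list. None of them passed FDR ≤ 0.10 in edgeR, DESeq2 called 4 over the same libraries, and the estimates run from -0.88 for ATP13A3 to 0.43 for DOHH.

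Some markers of other cells passed FDR ≤ 0.10 over the 12 libraries, and none did in edgeR over the 10 samples. Of the 8 Kupffer cell and macrophage markers, 2 (C1QB and C1QC) were higher in MET over the 12 libraries, and their summed level was 1318 to 1749 CPM in CON and 1553 to 2068 CPM in MET. Of the 6 tested markers of cycling cells, CDK1 and CCNB1 were lower in MET, and the summed level of the list was 23.5 to 88.0 CPM in CON and 12.1 to 30.5 CPM in MET. LUM, of the 5 stellate and fibroblast markers, was also lower, with a summed level of 561 to 863 CPM in CON and 430.2 to 711 CPM in MET. None of the tested hepatocyte, erythroid, neutrophil, lymphocyte, cholangiocyte or endothelial markers was called in edgeR. ALB came nearest among the hepatocyte markers, at 62223 CPM in CON and 39451 CPM in MET. Its log2 fold change was -0.65 (edgeR FDR = 0.107) over the libraries and -0.66 (FDR = 0.233) over the samples. APOA2 and FGB had estimates above 0 in both fits. The erythroid list, of which only HBB and ALAS2 passed the filter, spread from 7.64 to 965 CPM in CON and from 57.4 to 461 CPM in MET, with EPB42 at no more than 0.457 CPM. All these summed levels overlapped between the diets, and their part in the values of ADI1, ODC1 and SRM was not tested.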

How the data were processed

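RNA-seq was done on liver of 12 calves, 6 per maternal diet, and samples were grouped by their labels. Per the labels and methods, the authors trimmed the single-end stranded reads, aligned them to UMD 3.1.1 with STAR 2.5.3a and deposited raw counts per Entrez gene ID from featureCounts (Subread 1.5.2), in which reads with several alignments or several genes were left out. Symbols came from a RefSeq table of a later assembly, used for names only. Of the marker genes, CSF3R was not matched.

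Counts were scaled by TMM and filtered by filterByExpr (minimum count 10, minimum total 15), and diets were compared by edgeR 4.0.16's quasi-likelihood test (R 4.3.3) on diet alone, with Benjamini-Hochberg adjustment over all genes tested (FDR ≤ 0.10). Standard errors come from the F statistic. Libraries under a chi-square of 2 per gene were counted as 1 sample, with their reads summed in the edgeR, DESeq2 and voom fits. Their CPM and RPKM were averaged in means, and their log2 CPM in permutation tests and correlations. Exact permutation tests used log2 CPM with a prior count of 2. Permutation p of correlations came from 100000 resamples. RPKM used the exonic length in the files.

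The 3-read floor covers counting error only, as PCR copies could not be told from separate molecules. The labels name separate calves, but the near-identical pairs are unexplained. The p-values over 10 samples measure the spread between these samples. Those over 12 libraries count both libraries of each pair as separate replicates, so they and their FDR can be too small. The 10 genes, the other lists and the rule for naming genes were chosen with earlier results of these data known. The rule named all 10 genes and, per list, the highest per length and the largest change. For a called gene it named the 3 most and 3 least alike. OAT, OAZ2, DHPS, SLC3A2, KYAT1, KYAT3 and NIT2 were named after their values were seen. A few genes that the rule names are not reported here. Alternatives covered normalization, filter, test (DESeq2 1.42.0, limma 3.58.1), gene length, replicate block and libraries left out. The steps were tested on simulated data. Figures used Python 3.11.15.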

Additional observations from a re-analysis of the deposited data

Results flagged for a closer look

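Among 44 sets of 5 samples (22 genes in 2 diets), 5 held a sample far from the other 4 by Dixon's criterion. For independent sets of normally distributed values, chance alone meets it in about 5% of sets. The 22 genes share the same samples, and those named for the largest change were chosen on the same values. The number of sets can therefore not be judged against that rate. SAT1 was at 252 CPM in CON replicate 2, beside 165 to 188 CPM in the other CON samples. OAZ1 was at 255 CPM in the same library, beside 178 to 198 CPM. CON replicate 3 stood apart for 3 genes: AZIN1 at 74.0 CPM (others 44.1 to 49.6), SAT2 at 12.2 CPM (others 31.8 to 37.6) and ATP13A3 at 10.8 CPM (others 2.92 to 4.47). All 5 such samples were CON samples, and 3 of them were CON replicate 3, the library without which ODC1 passed the FDR threshold.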

How the results depend on the processing

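Over the 12 libraries 1 of the 10 genes, ADI1, was called. The number was also 1 with other scaling factors, other filters, robust estimation, voom or the length trend removed, and over 10 samples with DESeq2. It was 2 with DESeq2 over 12 libraries, where ODC1 joined and the calls over all genes were 1314 instead of 583, and 0 with the replicate block, with the pairs summed in edgeR, and in the fits chosen after seeing the data: 1 library of each pair left out, both of each pair left out, and the pairs summed with voom, with the length trend removed, or with library size only, RLE or upper-quartile factors. With each library left out in turn it ranged from 0 (without CON replicate 1 or 4, with 26 and 35 calls over all genes) to 2 (without CON replicate 3, with 284). Calls over all genes were 206 to 565 without another library, 107 with library size only, 238 with no filter and 240 with the length trend removed. Of the 26 pathway genes, 0 were called, but 4 with DESeq2 over 12 libraries, 1 with DESeq2 over 10 samples, and 0 to 2 with each library left out (DOHH and ATP13A2 without CON replicate 2, SLC3A2 without CON replicate 6).

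The ADI1 estimate was below 0 in all 31 alternatives (-0.82 to -0.48), passing in 20. ODC1 stayed between 0.60 and 0.92 and passed in 2. AMD1 (-0.42 to -0.08), SRM (0.65 to 1.14), SMS (0.08 to 0.29) and MTAP (-0.52 to -0.15) kept their direction. Signs turned for SAT1 (-0.013 with the length trend removed, -0.011 without MET replicate 6 in a range up to 0.215 with a library left out), MRI1 (-0.0021 with the length trend removed, -0.0093 with it over 10 samples, -0.021 without CON replicate 3 in a range up to 0.289), APIP (-0.00033 with the length trend removed) and ENOPH1 (0.071 with both pairs left out). The causes were not tested.

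Replicate numbers did not pair the calves: correlations of same-numbered libraries were -0.190 to 0.148, and no CON library was closest to its own number. With the replicate block 6 genes were called in all and ADI1 was at -0.69 (edgeR FDR = 0.150). Fold changes correlated with exonic length across genes (r = -0.264; genes are not independent replicates), and with this trend removed ADI1 was at -0.82 (FDR = 0.0277).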

Other observations

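Of the genes around the pathway, 5 were below the filter. OAZ3, the testis antizyme, AZIN2 and EIF5A2 had at most 1, 4 and 3 reads in any library. SMOX, which oxidizes spermine directly, was at 1.10 ± 0.359 CPM in CON and 0.915 ± 0.324 CPM in MET, and SLC22A3 at 1.04 ± 0.636 and 0.841 ± 0.715 CPM (SD, n = 5 each). Per exonic length, PAOX averaged 14.3 ± 4.29 RPKM and SMOX 0.404 ± 0.135 RPKM over the 10 samples, and their ranges did not overlap.

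In CON as in MET, the near-identical libraries carried the same pair of second indexes. The part of this in their likeness was not tested.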
